A study of Ciona robusta with 8 samples.

Results

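Between 15 and 18 hours post fertilization (hpf), 80 of the 15232 gene models counted in sorted trunk ventral cells of the sea squirt Ciona robusta fell at least 4-fold with no overlap between the libraries of the 2 times. The members were chosen by their measured levels. A model entered when its mean over the 4 libraries of 15 hpf was 2 CPM or more (counts per library, scaled so that every library total is equal), its mean over the 4 libraries of 18 hpf was at least 4-fold lower, and its highest 18 hpf library lay below its lowest 15 hpf library. Of the 15232 models, 9720 reached the level, 92 of these also reached the 4-fold fall, and 80 met the condition on overlap. A list of 14 models was set aside beforehand, and none of them met the 3 conditions. Because every library of both times was used to pick the members, their fall is described here and not tested.

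Trunk ventral cells are the progenitors that give rise to the heart and to the siphon muscles of the pharynx in ascidians. They migrate from the tail into the ventral trunk and then divide asymmetrically, which sets heart precursors apart from precursors of pharyngeal muscle. Over such a transition a transcript declines when it is made more slowly than it is degraded or diluted by growth and division. Tcf is the DNA-binding partner of beta-catenin in canonical Wnt signalling, and it acts as an activator when beta-catenin is bound and as a repressor when it is not.

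Each of the 4 groups held 2 libraries. They were cells with a control guide RNA at 15 hpf, cells with a guide RNA against Tcf at 15 hpf, and the same pair of guides at 18 hpf, all from embryos that had received CRISPR/Cas9. The sorted cells are labelled multipotent cardiopharyngeal progenitors. Their total RNA, a trace amount from few cells, was copied and amplified with a SMART-Seq kit before the libraries were made. The sources used here do not give the promoter that drove Cas9, the rate of mutation reached in the sorted cells, or whether the 2 libraries of a group were separate batches of embryos, so p-values measure the spread between these libraries, which may be technical. The library totals ran from 6207795 to 7765068 counts at 15 hpf and from 6554315 to 9556959 at 18 hpf, so that 1 count was worth 0.105 to 0.161 CPM. The reads carry no stated molecular identifiers, so limits from counting describe the sampling of reads alone. In bulk samples, fewer cells that hold a transcript and less of it per cell cannot be told apart.

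The files name genes by model identifier. None of the 15232 identifiers (0) matched the 21486 genes of the supplied reference table. No symbol, function, position or sequence is therefore given for any member, the levels of Tcf itself were not analysed here, and the labelled cell type was not checked against marker genes. Members are called by identifier.

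As a set, the members took 1.15% ± 0.14 (SD, n = 4) of all counts at 15 hpf, with 1.06% and 1.36% under the Tcf guide and 1.08% and 1.10% under the control guide. At 18 hpf they took 0.242% ± 0.036 (SD, n = 4), with 0.288% and 0.238% under the Tcf guide and 0.240% and 0.201% under the control guide. The highest library at 15 hpf was Tcf replicate 2 and the highest at 18 hpf was Tcf replicate 1. The median member had a level of 23.6 CPM at 15 hpf and 3.80 CPM at 18 hpf. Its rank among all models, with the most abundant at 1, moved from between 4205 and 4676 in the 15 hpf libraries to between 9000 and 9505 in those of 18 hpf. Between 14 and 17 members stood among the 1000 most abundant models of a 15 hpf library, against 3 to 6 of an 18 hpf library. Among the 100 most abundant models there were 1 to 4 members per library at 15 hpf and 0 at 18 hpf.

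The falls of most members were under 8-fold, and a minority went far beyond that. By their fold fall, 36 members lay between 4-fold and 5-fold, 25 between 5-fold and 8-fold, 11 between 8-fold and 16-fold and 8 at 16-fold or more, with a median of 5.37-fold. The median fall was smaller among abundant members. It was 4.49-fold in the 2 members above 1000 CPM at 15 hpf and 4.41-fold in the 20 members of 100 to 1000 CPM. The 29 members of 10 to 100 CPM had a median fall of 5.94-fold, and the 29 below 10 CPM one of 5.80-fold. The level was concentrated in few members, since the 10 most abundant held 71.0% of the members' summed CPM at 15 hpf and the 20 most abundant 87.5%.

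**Figure D1:**
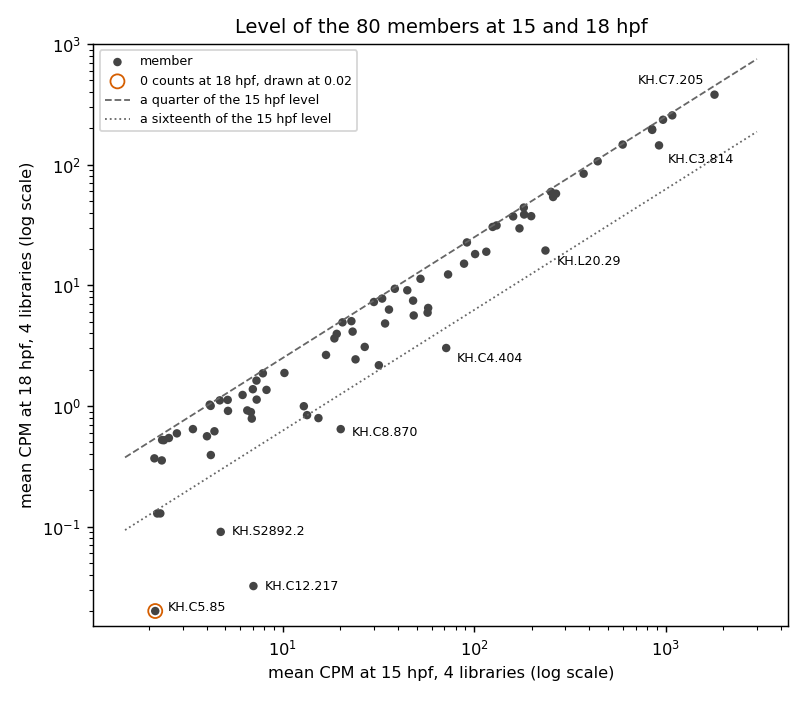
Mean CPM at 18 hpf against mean CPM at 15 hpf for the 80 members, each a point and the mean of 4 libraries, on log axes. All lie under the dashed line of a 4-fold fall by the rule, most of them at a fall under 8-fold. The 8 members below the dotted line of a 16-fold fall are KH.C12.217, KH.S2892.2, KH.C8.870, KH.C4.404, KH.C5.85, KH.C13.24, KH.S1528.1 and KH.C1.379, of which KH.C5.85, with no count at 18 hpf, is drawn at 0.02 CPM.

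The most abundant member was KH.C7.205, one of the 100 most abundant models in every 15 hpf library. At 15 hpf its level was 1842 and 1721 CPM with the control guide and 1866 and 1781 CPM with the Tcf guide. At 18 hpf it was 439 and 327 CPM (control) and 416 and 339 CPM (Tcf). The guides overlapped at both times, and the mean fell 4.74-fold, from 1802 ± 65 to 380 ± 56 CPM (SD, n = 4 each). KH.L9.22 stood at 954 and 983 CPM with the control guide and 1033 and 1367 CPM with the Tcf guide at 15 hpf, and at 271, 216, 256 and 281 CPM in the same order of groups at 18 hpf. Both Tcf libraries lay above both control libraries at 15 hpf, and the mean fell 4.23-fold.

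KH.L108.56 stood at 1078 and 821 CPM (control) and 1080 and 902 CPM (Tcf) at 15 hpf. At 18 hpf it had 195 CPM in both control libraries and 307 and 245 CPM in the Tcf libraries, so that the guides overlapped at 15 hpf and did not at 18 hpf. Its fall was 4.86-fold in control and 3.59-fold in Tcf libraries. KH.C4.36 stood at 438 and 373 CPM (control) and 345 and 337 CPM (Tcf) at 15 hpf, and 82.7, 75.5, 81.7 and 96.9 CPM at 18 hpf. Here the Tcf libraries were the lower ones at 15 hpf and overlapped the control libraries at 18 hpf.

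The other 6 of the 10 most abundant members had mean levels from 268 to 925 CPM at 15 hpf and fell between 4.07-fold and 6.40-fold. KH.C1.159 lay near the limit and varied little between libraries of a time, with 536, 605, 589 and 659 CPM at 15 hpf and 165, 139, 135 and 148 CPM at 18 hpf. KH.S1440.1 (852 ± 181 CPM, n = 4), KH.L116.38 (442 ± 73 CPM) and KH.L152.12 (268 ± 20 CPM) fell 4.39-fold, 4.15-fold and 4.66-fold. KH.C3.814 and KH.L164.8 had their highest 15 hpf value in Tcf replicate 2, and are described with that library further on.

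The steepest declines took transcripts of moderate and low level close to the limit of counting. KH.C5.85 had 17 and 4 counts with the control guide and 25 and 15 with the Tcf guide at 15 hpf, and then 0 counts in every library of 18 hpf, at least 22.8-fold lower when the 18 hpf libraries together are set to a floor of 3 counts. It was the 1 member with no count at 18 hpf. KH.C12.217 dropped from 32, 69, 62 and 43 counts, in the order of control and Tcf libraries, to 0, 0, 1 and 0. The ratio of its summed counts per summed total was 225, with a 95% counting interval (exact Clopper-Pearson) of 39.9 to 8921. KH.S2892.2 had 17, 35, 44 and 44 counts before and 1, 0, 0 and 2 after, for which the ratio was 50.9 and its interval 17.1 to 250.

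In these 3 models both guides dropped to or near 0. KH.S1528.1 had 11, 14, 21 and 21 counts before and 0, 0, 2 and 2 after, a ratio of 18.3 (interval 6.82 to 69.0). KH.C1.379 had 16, 16, 9 and 23 counts and then 1 in each library, a ratio of 17.5 (interval 6.50 to 66.0). Of all 80 members, 70 kept at least 1 count in every 18 hpf library and 10 had a 0 in at least 1 of them, and between 2 and 6 members were at 0 in a given library.

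Better counted were the steep falls of KH.C8.870, KH.C13.24, KH.C9.830 and KH.C10.182. KH.C8.870 stood at 20.3 and 25.4 CPM (control) and 20.7 and 14.05 CPM (Tcf) at 15 hpf, and at 0.732, 1.07, 0.644 and 0.129 CPM at 18 hpf, from 582 counts in all to 20. Its mean fell 31.2-fold, and the guides overlapped at 15 hpf. KH.C13.24 had 9.34, 17.1, 17.2 and 17.8 CPM and then 0, 1.37, 0.773 and 1.03 CPM, a 19.4-fold fall in which the Tcf libraries were the higher ones at 15 hpf. KH.C9.830 had 16.8, 14.4, 12.1 and 10.3 CPM and then 0.314, 1.37, 1.03 and 0.644 CPM, a 15.9-fold fall from Tcf libraries that were lower at 15 hpf. KH.C10.182 had 34.6, 37.6, 22.03 and 32.9 CPM and then 2.51, 0.915, 2.32 and 2.96 CPM, a 14.6-fold fall. KH.C4.404, which ranked 4 by its fall, differed between the guides as well and is described with them.

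**Figure D2:**
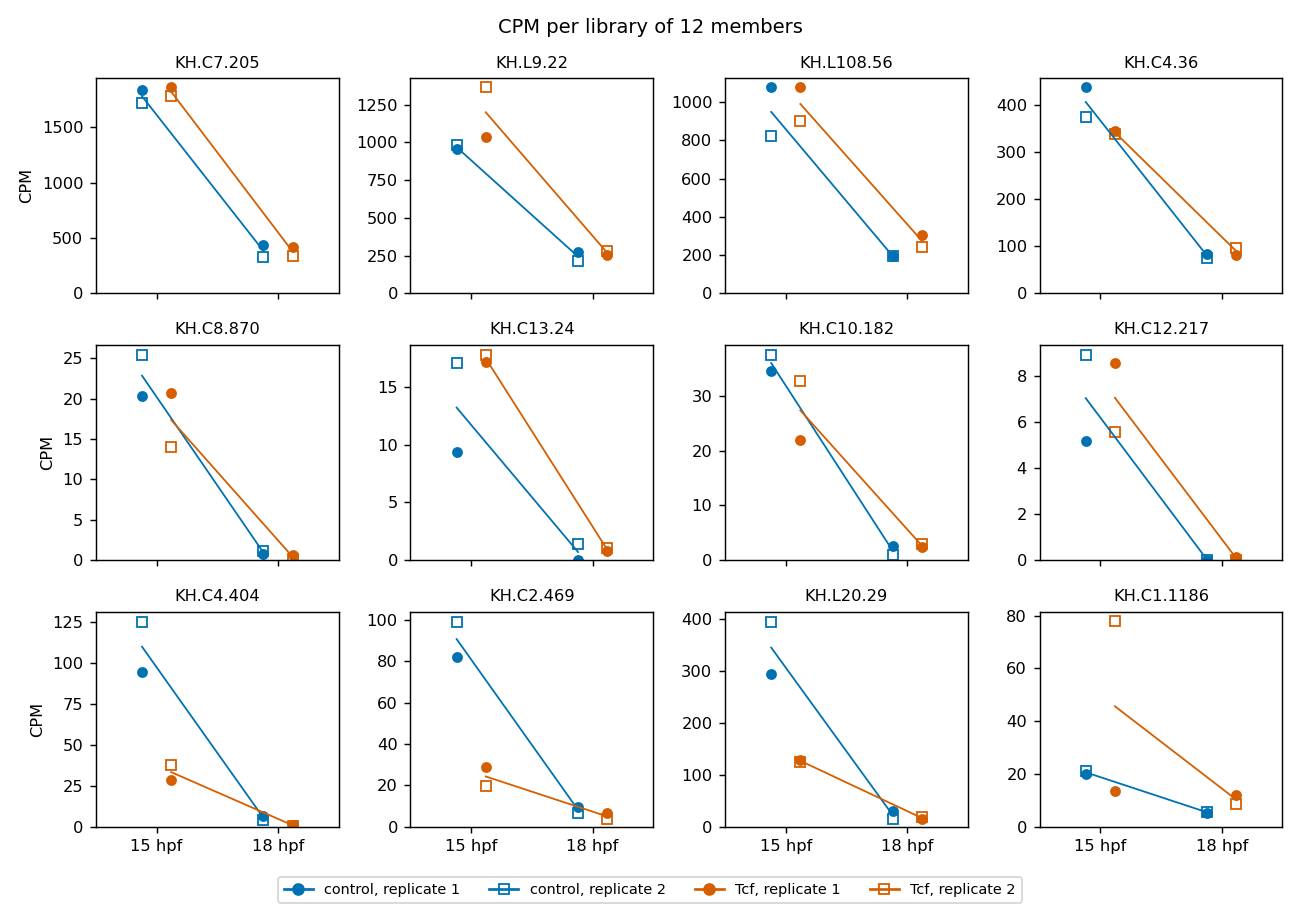
CPM of 12 members in each of the 8 libraries, by time on the x axis, with control libraries in blue and Tcf libraries in orange. Lines join the group means, and each panel has its own y axis from 0. The top row shows abundant members, the middle row steep falls, and the bottom row 3 members with lower values in Tcf libraries at 15 hpf and KH.C1.1186, which is high in Tcf replicate 2 alone.

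The limits of the rule cut through a continuum. Just inside the 4-fold limit were KH.C2.204 (4.04-fold), KH.S880.1 (4.05-fold) and KH.C1.159 (4.07-fold), and just outside it were KH.C4.6 (3.999-fold), KH.C9.600 (3.97-fold) and KH.C5.653 (3.91-fold). At the limit of level, KH.C10.191 (2.14 CPM at 15 hpf) and KH.C5.85 (2.16 CPM) were inside, and KH.S1285.2 (1.80 CPM) and KH.C3.862 (1.59 CPM) outside. A further 12 models met both limits and had overlapping libraries. The largest falls among these were 7.06-fold (KH.C13.177), 6.22-fold (KH.C2.443) and 5.83-fold (KH.C7.414). Scaling to library totals also bears on the limit. With it, the median model went up between the times by 0.17 on the log2 scale, a factor of 1.13, whereas the trimmed mean of M-values (TMM) left a median of 0.03. With TMM factors the 80 members all stayed and 23 models joined them. Over the 79 members with a count at 18 hpf, the median fall was 5.31-fold on library totals and 5.89-fold with TMM.

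The condition on overlap fixes that every member falls under each guide, so only the size of the fall under each is described. It reached 4-fold in 71 members in the control libraries taken alone, in 60 in the Tcf libraries taken alone, and in 51 in both. The median fall was 6.33-fold in control and 4.78-fold in Tcf libraries. It was larger in control for 52 members and larger in Tcf libraries for 28, and for 61 members the 2 falls lay within 2-fold of each other (groups under 3 counts were set to 3 in these ratios). The difference itself is tested by the interaction of guide and time. The rule did not use the labels of the guides, but it used the values of these same libraries. Its conditions restrict the interactions that members can show, so their values are set beside those of all models as a description. The interaction called 0 of the 79 members that passed the filter on low counts, against 0.0% of the 11970 models tested. This was by the quasi-likelihood test of edgeR with Benjamini-Hochberg adjustment at 0.05. DESeq2 called 0 of the 61 members to which it gave an adjusted p, against 0.235% of all models with one, and limma-voom 0 of 79, against 0.0%. At an unadjusted p under 0.05, 3 members had a positive interaction, that is a smaller fall in Tcf libraries, against 2.12% of all models, and 1 had a negative one, against 2.56%. The interaction was above 0 in 52 of the 79 members (65.8%), against 50.1% of all models. The median interaction of the 79 members was 0.23 on the log2 scale and that of all tested models 0.00. The members' median ran from 0.13 without Tcf replicate 1 of 18 hpf to 0.38 without Tcf replicate 2 of 15 hpf. Over all models these fits gave -0.02 and 0.02.

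**Figure D3:**
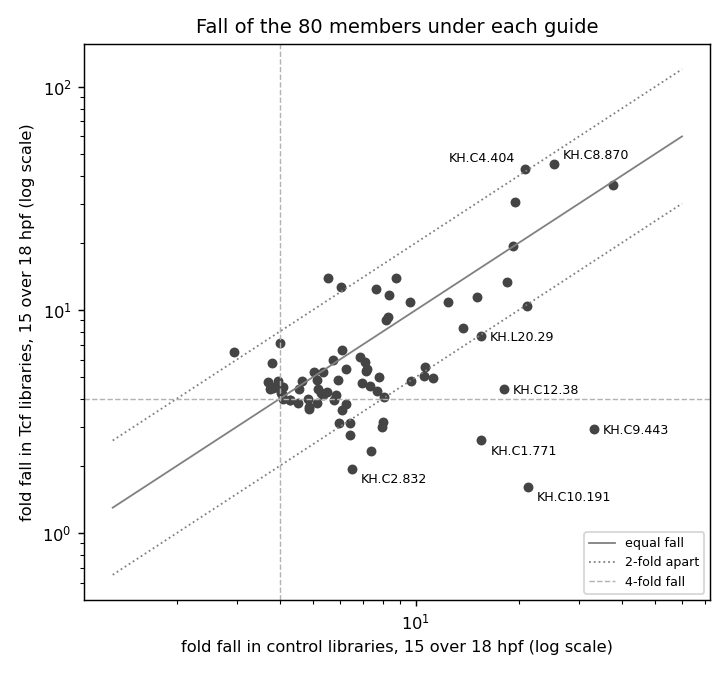
Fold fall in Tcf libraries against fold fall in control libraries for the 80 members, as ratios of group means of 2 libraries on log axes. The points gather around the line of equal fall with a median of 6.33-fold in control and 4.78-fold in Tcf libraries, and the labelled points at the lower right fell by less in Tcf libraries.

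The members with the smallest p for the interaction follow as values, since none was called. With the control guide KH.L154.5 went from 34.0 and 35.3 CPM to 5.02 and 5.80 CPM, and with the Tcf guide from 25.6 and 24.9 CPM to 7.60 and 10.7 CPM. Tcf libraries were thus lower at 15 hpf and higher at 18 hpf, with no overlap at either time (interaction 1.19, SE 0.37, adjusted p = 0.959, edgeR). KH.C1.771 went from 10.2 and 12.4 CPM to 0.837 and 0.610 CPM (control) and from 5.37 and 5.03 CPM to 3.09 and 0.902 CPM with the Tcf guide (interaction 2.48, SE 0.78, adjusted p = 0.959). It showed the same crossing, on 4 to 24 counts per library at 18 hpf.

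In the other direction, KH.C14.148 stood at 18.4 and 26.7 CPM (control) and 36.4 and 25.9 CPM (Tcf) at 15 hpf, and 3.03, 4.42, 3.09 and 1.80 CPM at 18 hpf (interaction -1.08, SE 0.50, adjusted p = 0.989). KH.C7.525 had 43.2, 62.3, 59.8 and 63.3 CPM and then 7.12, 6.71, 4.77 and 5.15 CPM (interaction -0.74, SE 0.34, adjusted p = 0.989). The guides overlapped at 15 hpf in both models, and at 18 hpf the Tcf libraries of KH.C7.525 were the lower ones.

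The largest differences between the falls of the 2 guides rested on few counts or on 1 library. KH.C10.191, the 1 member that did not pass the filter, went from 35, 8, 8 and 6 counts to 3, 0, 5 and 4, with a fall of 21.2-fold in control and 1.62-fold in Tcf libraries. KH.C9.443 had 55, 12, 15 and 28 counts and then 3, 0, 4 and 11, and KH.C2.832 had 117, 42, 32 and 22 and then 24, 8, 15 and 14. In these 3 models control replicate 1 held the highest 15 hpf value. KH.C12.38 had 22, 73, 47 and 52 counts and then 1, 4, 13 and 10, so that here the 18 hpf libraries made the difference. Falls in control against Tcf libraries were 33.1-fold and 2.94-fold for KH.C9.443, 6.50-fold and 1.94-fold for KH.C2.832, 18.1-fold and 4.45-fold for KH.C12.38, and 15.6-fold and 2.60-fold for KH.C1.771.

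At 15 hpf the question was whether targeting Tcf had altered these transcripts while they were still at their earlier level. The rule did not use the labels of the guides, but it used the values of these same libraries. A high value in 1 library of 15 hpf raises the mean by which a model enters, and without Tcf replicate 2 of 15 hpf, for example, 12 of the 80 would not be members. The condition on overlap also bounds how far the guides can be apart. In 70 of 79 members the fitted log2 fold change lay between -1 and 1, a difference within 2-fold. The median over the 79 members was 0.06 (0.01 over all tested models), and the median SE was 0.42. The members' median was -0.08 without Tcf replicate 2 of 15 hpf and 0.16 without control replicate 1. Both Tcf libraries lay below both control libraries in 15 members, 19.0% of those tested against 15.2% of all models, and above them in 13, 16.5% against 17.0%. These shares are near the background.

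No member was called at 15 hpf by edgeR (0 of 79, against 0.00835% of all models), whereas DESeq2 and limma-voom called the same 3, all with lower values in Tcf libraries, against 0.184% and 0.0334% of all models. At an unadjusted p under 0.05, 6 members were lower and 0 higher, 7.59% and 0.0% of those tested, against 2.41% lower and 2.65% higher among all models. Without Tcf replicate 1 of 15 hpf the balance turned, with 4 members lower and 9 higher, against 2.15% and 3.56% of all models. Of the 6, 3 are described next.

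With the Tcf guide KH.C2.469 stood at 28.6 and 19.8 CPM at 15 hpf, and with the control guide at 82.3 and 99.3 CPM. The fitted log2 difference was -1.90 (SE 0.28), 3.74-fold lower, and the adjusted p of edgeR was 0.0739. For KH.C4.404 the Tcf libraries held 28.6 and 37.8 CPM and the control libraries 94.6 and 125 CPM, a fitted difference of -1.72 (SE 0.27), or 3.29-fold, with an adjusted p of 0.109 in edgeR. For KH.L20.29, which was picked out after its values had been seen, they held 128 and 125 CPM against 295 and 395 CPM. Here the difference was -1.44 (SE 0.28), or 2.71-fold, with an adjusted p of 0.564 in edgeR. In each of the 3 the lowest control library was more than 2-fold above the highest Tcf library.

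Whether these models were called varied between tools and with the library left out. DESeq2 gave adjusted p = 4.35e-07, 1.26e-06 and 7.21e-06 for KH.C2.469, KH.C4.404 and KH.L20.29, and limma-voom 0.00792, 0.00884 and 0.0204. Over 14 alternatives KH.C2.469 passed in 6 (adjusted p from 4.35e-07 to 0.385), KH.C4.404 in 4 (1.26e-06 to 0.277) and KH.L20.29 in 5 (7.21e-06 to 1), with a fold change below 0 in all of them. With edgeR and no filter, KH.C2.469 (adjusted p = 0.0140) and KH.C4.404 (0.0253) passed, among 4 of 15005 models. With the 15 hpf libraries fitted alone, KH.L20.29 passed (0.0364), among 2 of 10643 models. The other edgeR passes came from fits that leave a group with 1 library. Without control replicate 2 of 18 hpf the log2 fold changes of KH.C2.469, KH.C4.404 and KH.L20.29 were -1.91, -1.72 and -1.45. Without control replicate 1 of 18 hpf KH.C2.469 was at -1.90 and KH.L20.29 at -1.44. Without Tcf replicate 1 of 15 hpf KH.C2.469 was at -2.17.

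All 3 were among the members that fell far, ranking 4 (KH.C4.404), 12 (KH.L20.29) and 16 (KH.C2.469) of 80 by fold fall. Their Tcf libraries of 15 hpf lay below the control libraries of that time and, as the rule fixes for every member, above all libraries of 18 hpf. For KH.L20.29 the group means with the control guide were 345 ± 71 CPM at 15 hpf and 22.3 ± 10.2 CPM at 18 hpf, and with the Tcf guide 127 ± 3 CPM and 16.6 ± 1.9 CPM (SD, n = 2 each). Their interactions were of either sign, at 0.95 (SE 0.42) for KH.L20.29, 1.12 (SE 0.43) for KH.C2.469 and -1.09 (SE 0.54) for KH.C4.404, each with adjusted p = 0.989 in edgeR.

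Among higher values at 15 hpf the smallest p belonged to KH.L9.22, whose values are given above, at a fitted difference of 0.32 (SE 0.17) and an adjusted p of 0.959 in edgeR. KH.C3.814 followed (log2 fold change 0.72, SE 0.40, adjusted p = 0.959). Leaving out Tcf replicate 1 of 15 hpf leaves Tcf replicate 2 alone in its group. The log2 fold change was then 0.52 for KH.L9.22 and 1.18 for KH.C3.814. Without Tcf replicate 2 of 15 hpf it was 0.08 for KH.L9.22 and 0.04 for KH.C3.814.

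**Figure D4:**
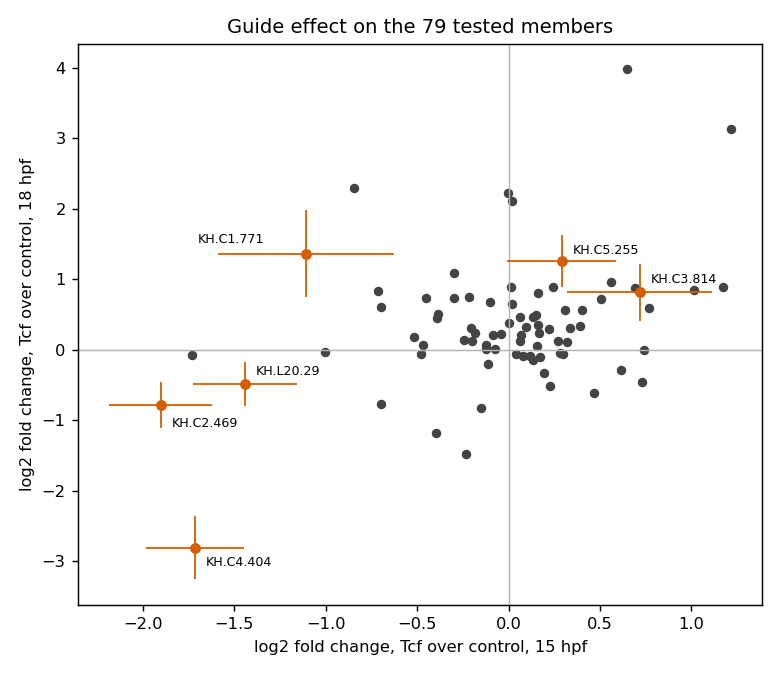
Fitted log2 fold change of Tcf over control libraries at 18 hpf against that at 15 hpf for the 79 tested members, with the standard error of the fit as bars on 6 named members. KH.C4.404, KH.C2.469 and KH.L20.29 lie at the lower left, and more points lie above 0 than below it at 18 hpf. The 2 highest points had 0 or 1 count in all in the control libraries of 18 hpf.

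At 18 hpf the same question concerns what remained of these transcripts. The rule used the values of these same libraries, since a low 18 hpf level helps a model to enter. Shares of members set beside those of all models are therefore a description and not a test. Again edgeR called 0 of 79 members (0.00835% of all models), limma-voom 0 of 79 (0.00835%) and DESeq2 1 of the 51 members to which it gave an adjusted p, KH.C4.404, against 0.199% of all models with one. More members had higher than lower values in Tcf libraries. The fitted change was above 0 in 55 of 79 members and below 0 in 23, with a median of 0.24 on the log2 scale, against 50.8% above 0 and a median of 0.01 over all tested models. Both Tcf libraries lay above both control libraries in 25 members, 31.6% against 18.3% of all models, and below them in 6, 7.59% against 13.9%. At an unadjusted p under 0.05, 10 members were higher, 12.7% against 2.0% of all models, and 2 were lower, 2.53% against 1.84%. Fitted alone, the 18 hpf libraries kept 51 members through the filter, of which 33 (64.7%) were above 0, against 50.2% of all models.

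This imbalance moved with the library left out. Tcf replicate 1 of 18 hpf was the highest of the 4 libraries in 40 of 80 members, 50.0%, against 31.0% of the 9720 models that reached 2 CPM at 15 hpf, and the lowest in 5. Without it, 42 of 80 members (52.5%) were above 0, with a median of 0.05, against 47.6% and -0.02 over all models. Without Tcf replicate 2 the numbers were 53 of 80 (66.2%) and a median of 0.39, against 49.8% and -0.001. Without control replicate 2 they were 45 of 80 (56.2%) and a median of 0.15, against 50.7% and 0.008. The part of these libraries in the result was not tested beyond these fits.

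The members with the smallest p at 18 hpf illustrate both directions. KH.C4.404 was at 1.16 and 0.386 CPM with the Tcf guide and at 6.28 and 4.27 CPM with the control guide, on 9 and 3 against 60 and 28 counts. Its fitted difference was -2.81 (SE 0.45), with an adjusted p of 0.258 in edgeR. KH.C2.469 was at 6.31 and 3.48 CPM (Tcf) and 9.63 and 6.56 CPM (control), a difference of -0.78 (SE 0.33, adjusted p = 1). In the other direction, KH.L152.12 was at 71.1 and 63.4 CPM (Tcf) and 42.6 and 52.9 CPM (control), a difference of 0.47 (SE 0.13, adjusted p = 1). KH.C5.255 was at 6.57 and 6.95 CPM (Tcf) and 1.67 and 4.12 CPM (control), a difference of 1.26 (SE 0.37, adjusted p = 1). The guides did not overlap in any of these 4, and in KH.C2.469 the gap between them was small, at 6.56 against 6.31 CPM.

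Taken as the mean of both times, the guide effect called 1 of 79 members, 1.27% against 0.0167% of all models (2 of 11970). This was KH.C4.404, with a fitted log2 difference of -2.26 (SE 0.26), or 4.79-fold lower with the Tcf guide, and an adjusted p of 0.00927 in edgeR. Both of its Tcf libraries lay below both control libraries at each time. Its call was lost with limma-voom (adjusted p = 0.694) and without Tcf replicate 2 of 18 hpf (log2 fold change -1.998, adjusted p = 0.0699), and held in 11 of 13 alternatives (range 2.78e-11 to 0.694). KH.C2.469 had a log2 fold change of -1.34 (SE 0.21, adjusted p = 0.16), and KH.L20.29 one of -0.97 (SE 0.21, adjusted p = 1). DESeq2 called these 3 of the 61 members with an adjusted p, against 0.168% of all models, and limma-voom 0 of 79, against 0.00835%. At an unadjusted p under 0.05, 9 members were higher, 11.4% against 2.22% of all models, and 4 were lower, 5.06% against 1.9%. Above 0 were 68.4% of the members, against 51.9% of all models. Without Tcf replicate 1 of 18 hpf this share was 51.2%, against 50.0%, and without Tcf replicate 1 of 15 hpf 65.0%, against 48.8%. As at each time, these shares describe members that the rule picked on the same libraries.

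At 15 hpf the highest library of a member exceeded the lowest by less than 1.5-fold in 25 members, by 1.5-fold to 2-fold in 16, by 2-fold to 3-fold in 22 and by 3-fold or more in 17, the first class having a median level of 125 CPM and the last one of 6.17 CPM. A single library was at least 2-fold above the mean of the other 3 in 8 members for Tcf replicate 2, 7 for control replicate 1, 3 for control replicate 2 and 0 for Tcf replicate 1. Among the 9720 models of 2 CPM or more the shares were 3.30%, 3.58%, 1.18% and 1.05%. At a limit of 1.5-fold the counts were 11, 14, 10 and 5 members. Since a high library of 15 hpf helps a model to meet the rule, these counts are a description and not set against the models as a test. The 8 members high in Tcf replicate 2 include 2 of the 10 most abundant and are described next.

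KH.C1.1186 had 77.8 CPM in Tcf replicate 2 against 19.97 and 21.1 CPM in the control libraries and 13.4 CPM in Tcf replicate 1, 4.29-fold above their mean. KH.C1.120 had 291 CPM against 71.0, 104 and 57.8 CPM, and KH.L37.70 had 94.7 CPM against 30.8, 40.7 and 25.8 CPM. KH.L164.8 had 1459 CPM against 544, 868 and 526 CPM, and KH.C3.814 had 1563 CPM against 672, 735 and 729 CPM. In each of these Tcf replicate 2 was at least 1.5-fold above the next library, while Tcf replicate 1 was the lowest of the 4 in all but KH.C3.814. The remaining 3 were KH.C12.472, KH.C4.27 and KH.C2.204, with ratios of 4.17, 2.38 and 2.04.

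Together the 8 took 0.377% of the counts of Tcf replicate 2 and 0.147%, 0.192% and 0.146% of those of control replicates 1 and 2 and Tcf replicate 1. The 8 were picked for a high value in Tcf replicate 2, so their larger share there follows from that choice. The other 72 members took 0.981% in Tcf replicate 2 and 0.938%, 0.908% and 0.910% in the others, so they too were highest in this library. The fall of the 8 depended on Tcf replicate 2 of 15 hpf. Without Tcf replicate 2 of 15 hpf, 4 of the 8 missed the 4-fold limit, KH.C1.1186 at 2.34-fold, KH.C1.120 at 2.48-fold, KH.C2.204 at 3.21-fold and KH.L164.8 at 3.27-fold. The other 4 stayed, with KH.C3.814 at 4.93-fold, KH.C4.27 at 4.41-fold, KH.L37.70 at 4.34-fold and KH.C12.472 at 5.99-fold.

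**Figure D5:**
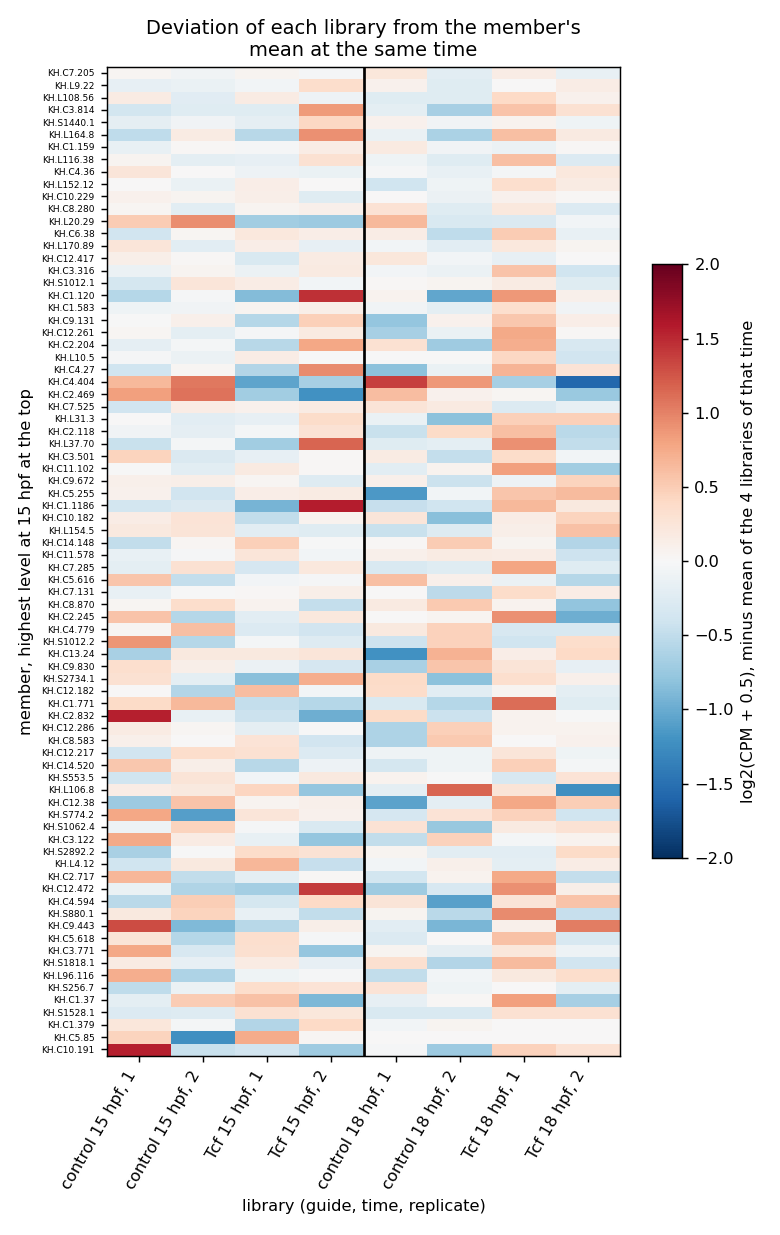
Deviation of each library from the mean of the 4 libraries of the same time, as log2(CPM + 0.5), for the 80 members in order of their level at 15 hpf, with the 4 libraries of 15 hpf to the left of the line and those of 18 hpf to the right. Red cells in Tcf 15 hpf replicate 2 mark KH.C1.120, KH.L37.70, KH.C1.1186 and KH.C12.472, and blue cells in both Tcf libraries of 15 hpf mark KH.L20.29, KH.C4.404 and KH.C2.469. In 18 hpf, Tcf replicate 1 is mostly red, and it was the highest library in 40 of 80 members.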

How the data were processed

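Bulk RNA was sequenced from sorted cells in 8 libraries. The deposited values are raw counts per gene model, one file per library. Alignment with TopHat2 2.0.12 and counting with featureCounts are named in the submitters' processing notes. Genome build, strand and handling of multi-mapping reads: not given in the sources used here. Models that overlap or have a near-identical copy therefore have uncertain counts. Groups follow the sample titles. The file headers number the 2 control libraries of 15 hpf the other way round.

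Members were found from CPM on library totals. Guide contrasts were tested with edgeR 4.0.16 (limma 3.58.1, R 4.3.3) on the deposited counts with filterByExpr (minimum count 10, 11970 models kept), TMM factors, a model of 4 group means over 8 libraries, the robust quasi-likelihood F test, and Benjamini-Hochberg adjusted p-values over the whole table. DESeq2 1.42.0, limma-voom, library totals without TMM, no filter, libraries of 1 time, a replicate block and leaving out each library were alternatives. SE is the log2 fold change over the square root of F. The edgeR fit was also run on counts drawn with known changes. The share of these that it recovered is not given here, so a count of 0 calls does not show that differences are absent. With 2 against 2 libraries an exact permutation test cannot go below p = 0.333.

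The members and lists were chosen with earlier results of these data known. Lists of pathways and cell type markers could not be applied, as identifiers carry no names. Named members are the 10 most abundant, the 10 with the largest falls (18 hpf groups under 3 counts set to 3 for ranking), those nearest the limits, members called or with the smallest p per contrast, and the 5 whose falls differed most between guides.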

Additional observations from a re-analysis of the deposited data

How the results depend on the processing

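The number of members was 80 and ranged from 71 to 116 when 1 library was left out, with 66 to 77 of the 80 shared. It was 153 with a limit of 3-fold and 44 with a limit of 5-fold, 130 in control libraries alone (69 shared) and 88 in Tcf libraries alone (60 shared). With TMM scaling it was 103, and the members then took 1.39% of counts at 15 hpf and 0.306% at 18 hpf.

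Members called are given with the number over all models in brackets. At 15 hpf they numbered 0 (1) in edgeR, 3 (22) with DESeq2, 3 (4) with limma-voom, 2 (4) without the filter and 1 (2) in the 15 hpf libraries alone. At 18 hpf they numbered 0 (1) in edgeR and 1 (16) with DESeq2. Fitting 18 hpf alone kept only 51 members through the filter. For the mean of both times they numbered 1 (2) in edgeR, 3 (15) with DESeq2, 0 (1) with limma-voom and 2 (4) without the filter. When a library was left out, the members' median log2 fold change ran from -0.08 to 0.16 at 15 hpf. It ran from 0.05 to 0.39 at 18 hpf and from 0.03 to 0.23 for the mean. The interaction called 0 members in each setting run. Over all models it called 0 in edgeR, 21 with DESeq2, 0 with limma-voom and 1 without the filter. Fits that leave a group with 1 library assume that it varies like the others.

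With the replicate block, edgeR called 0 members at 15 hpf, 0 at 18 hpf, 1 for the mean (KH.C4.404, adjusted p = 0.0344) and 0 for the interaction. Over all models it called 1, 1, 2 and 0. The correlation of deviations between groups, with libraries matched by replicate number, ran from -0.17 to 0.06. This cannot show whether libraries of equal number shared a batch, and titles and file headers number the control libraries of 15 hpf differently. Among members named in a contrast, the 1 change of sign was KH.L20.29 at 18 hpf, not called, with 0.15 on the log2 scale without control replicate 1 of 18 hpf (range -0.95 to 0.15 when a library was left out); the cause was not tested. Depth limits the members under 10 CPM most.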
